A study of Arabidopsis thaliana with 12 samples.

Results

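Transcripts of 24 cytochrome P450 genes were read in Arabidopsis roots, 12 of them from a signal bright enough to read. The genes were taken by symbol from the platform's annotation, as every probe set with 1 annotated gene whose symbol follows the P450 pattern, such as CYP718, with cyclophilins left out. Each of the 24 had a single probe set, all 24 matched a locus by gene number, and 237 genes of the TAIR10.1 reference table, pseudogenes included, carry a symbol of this pattern. The others are not analysed here. The members therefore do not stand for the whole family: 19 of the 24 belong to the CYP71B subfamily. The 17 pathway lists of P450 genes drawn up for hormone, sterol, suberin, terpene and defence metabolism hold 84 genes, of which 5 are members, and 12 of the lists have none.

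Roots were compared in 4 groups of 3 arrays. These were chl1-5 after 30 min in 25 mM KNO3 (T0.5), chl1-5 before nitrate (T0), wild type at T0.5 and wild type at T0, all in the Columbia background at an age of 10 days. The chl1-5 line lacks a working CHL1, a nitrate transporter that also acts in nitrate sensing. CHL1 is not among the named probe sets, so its level was not used as a check of the labels. All plants had grown on 12.5 mM ammonium succinate and had spent 3 h in that medium at pH 5.5. At T0.5 the ammonium salt had been replaced by KNO3, so the step from T0 to T0.5 also holds the loss of ammonium and a transfer. Each array held whole roots pooled from about 900 seedlings in 9 vessels.

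Cytochrome P450s are heme enzymes of the endoplasmic reticulum and plastids. They insert oxygen into small molecules with electrons from a reductase, and plants use them to make or inactivate hormones, sterols, phenolics, wall lipids and defence compounds. The CYP71B subfamily expanded in Arabidopsis through tandem copies, and most of its enzymes have no settled substrate. In roots, P450s of indole metabolism make defence compounds from tryptophan. CYP71B6 acts there on indole-3-acetonitrile, and CYP79A2 starts benzyl glucosinolate from phenylalanine. CYP84A4 works beside the lignin pathway in the synthesis of pyrones. CYP78A9 promotes fruit and seed growth, and CYP71B31 oxidises the flower scent linalool. For the other members no role is given here.

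Values are MAS5 signals, 1 intensity per probe set on a linear scale. A gene was called readable where its signal reached the 40th percentile of the array on at least 3 arrays, and dim in a group where it stayed below that percentile on all 3 arrays. The 40th percentile lay between 98.3 and 111 on the 12 arrays. By this measure 12 members (50.0%) were readable, against 57.3% of all probe sets with 1 gene. The expansin genes EXPA7 and EXPA18, markers of root hairs, had signals of 627 to 1410 and 646 to 1164, and RCA, the 1 of 16 listed shoot markers with a named probe set, had 539 to 698.

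Of the members, 7 stood above the 40th percentile on all 12 arrays and 11 on none. CYP71B6 (AT2G24180) was the brightest, with signals from 2410 to 4152 and a median of 3078. CYP71B23 (AT3G26210) ranged from 952 to 2124, CYP71B37 (AT3G26330) from 619.9 to 1149 and CYP71B26 (AT3G26290) from 544 to 971. CYP71B29 (AT1G13100), CYP71B28 (AT1G13090) and CYP71B34 (AT3G26300) had medians of 286, 278 and 247. A signal depends on the probes of its set, so these values order brightness and not transcript number.

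Below them, CYP84A4 (AT5G04330) reached the 40th percentile on 11 arrays, with signals from 105 to 233, and CYP718 (AT2G42850) on 8 arrays, with signals from 5.3 to 275.9. CYP51G2 (AT2G17330), a copy of the sterol demethylase gene that the reference table lists as a transcribed pseudogene, reached it on 5 arrays, CYP71B22 (AT3G26200) on 4 and CYP71B24 (AT3G26230) on 3. These last 3 genes lie at the edge of what could be read. CYP51G2 and CYP71B24 were dim in wild type at T0.5, and CYP71B22 was dim in wild type at T0. CYP78A9 (AT3G61880) fell just outside, above the 40th percentile on 1 array.

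The remaining 12 members had signals from 0.6 to 113 over all arrays. CYP79A2 stayed between 0.8 and 3.7, and CYP71B31 between 0.7 and 34.5. CYP71B30P, a pseudogene by its symbol although the reference table lists it as coding, stayed between 0.8 and 9.8. CYP71B27, listed as a transcribed pseudogene, stayed between 7.2 and 33.5. These signals do not show whether the genes were transcribed.

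**Figure D1:**
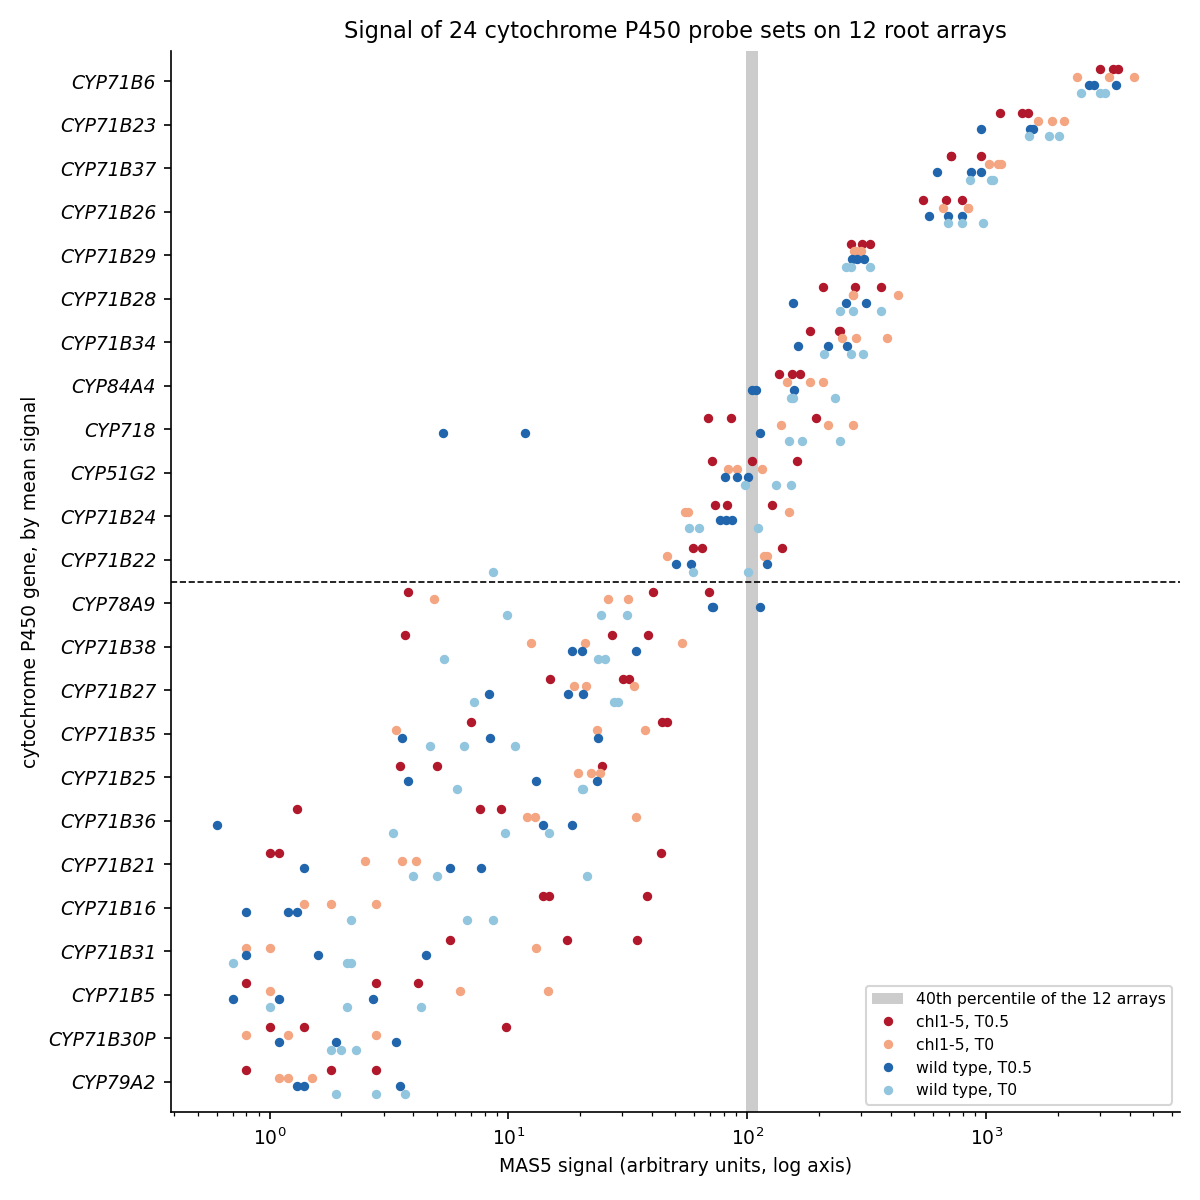
Signal of the 24 members on each of the 12 arrays (horizontal log axis, MAS5 units), 1 row per gene by mean signal and 1 dot per array, coloured by group, with the 40th percentile of the arrays (98.3 to 111) as a grey band. The 12 genes above the dashed line were readable, and CYP718 is the readable gene whose dots spread widest, with 2 wild-type T0.5 arrays at 5.3 and 11.7.

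The members were also placed by gene order, with clusters formed from P450-named genes only. In this order 17 members fell into 4 clusters with at most 2 other genes between neighbours. All 17 belong to CYP71B, as do 19 of the 24 members. The other 7 members stood alone. Readable and dim members lay side by side. In the cluster of 8 P450 genes that holds CYP71B25, CYP71B26, CYP71B34, CYP71B35, CYP71B36 and CYP71B37, 3 members were readable and 3 were dim. The last 4 of these are direct neighbours, with the outer pair CYP71B34 and CYP71B37 readable on all 12 arrays and the inner pair dim on all of them (CYP71B35 from 3.4 to 45.9, CYP71B36 from 0.6 to 34.1).

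In the cluster of 10 that holds CYP71B16, CYP71B21, CYP71B22, CYP71B23 and CYP71B24, 3 members were readable and 2 were dim. CYP71B28 and CYP71B29 are direct neighbours and both readable, while CYP71B27 of the same cluster was dim. The 3 members of the fourth cluster, CYP71B5, CYP71B30P and CYP71B31, were all dim. Binding of transcripts of neighbouring copies to these probe sets was not tested. One probe set shared by CYP71B19 and CYP71B20 was left out for holding several genes.

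From T0 to T0.5 no readable member was called higher in either genotype, and the readable members called were all lower. CYP718 fell in wild type. CYP718, CYP71B23 and CYP71B37 fell in the mean response over both genotypes. CYP71B6 and CYP71B29 showed no change that passed. A gene was called where limma's Benjamini-Hochberg adjusted p, taken over the 14291 probe sets tested, was under 0.05. In whole roots, less RNA per cell and fewer cells of a type cannot be told apart. The root-hair marker EXPA7 fell in the same arrays, by 0.73 in chl1-5 (SE 0.17, adjusted p = 0.0334) and by 0.79 in wild type (SE 0.17, adjusted p = 0.0172), as EXPA18 did in the mean response, by 0.40 (SE 0.09, adjusted p = 0.0128). These are the 2 of 22 listed root markers with a named probe set, and their part in the members' changes was not tested.

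CYP718 had signals of 193.8, 85.2 and 68.4 in chl1-5 at T0.5 (replicates 1 to 3), against 218.7, 138.8 and 275.9 at T0. In wild type it had 113.2, 5.3 and 11.7 at T0.5, against 149.2, 169.8 and 243.3 at T0. Replicate 1 was the highest T0.5 array in both genotypes, and the wild-type arrays of both times did not overlap. The chl1-5 arrays overlapped.

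In chl1-5 CYP718 averaged 115.8 ± 68.1 at T0.5 and 211 ± 68.9 at T0 (SD, n = 3 arrays each), a limma log2 change of -0.96 (SE 0.84, adjusted p = 0.634). In wild type it averaged 43.4 ± 60.5 at T0.5 and 187.4 ± 49.5 at T0 (SD, n = 3 arrays each), and it fell by 3.26 on the log2 scale (SE 0.84, 95% interval -5.09 to -1.43, limma adjusted p = 0.042). Of the 8 arrays on which CYP718 reached the 40th percentile 6 were T0 arrays, and 2 of the 3 wild-type T0.5 arrays lay far below it, so the size of this change is not a measured fold. On the scale of log2(signal + 50) it was -1.51 (SE 0.39, adjusted p = 0.0399). Over both genotypes it fell by 2.11 (SE 0.60, adjusted p = 0.0342) and was lower at T0.5 in 6 of 6 replicate pairs.

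The within-group SD of CYP718 was 1.25 on the log2 scale, at the 99.8th percentile of the probe sets tested, and the wild-type change was -0.40 in replicate 1, -5.0 in replicate 2 and -4.38 in replicate 3. Without the wild-type T0.5 array of replicate 1 the change was -4.54 (adjusted p = 0.000173), and without that of replicate 2 or 3 it was -2.33 or -2.90 (adjusted p = 0.151 and 0.15). The wild-type call was also lost after quantile normalization (adjusted p = 0.052), with no filter (0.0558), without a trend (0.0516) and with the wild-type arrays alone (0.121). It was lost without replicate number 2 or 3 (0.391 and 0.371), without any one of the wild-type T0 arrays (adjusted p from 0.0936 to 0.132), of the chl1-5 T0 arrays (0.0575 to 0.0607) or without the chl1-5 T0.5 array of replicate 2 (0.0614). The call in the mean response was lost without any one of 9 of the 12 arrays (adjusted p from 0.0569 to 0.079) and without replicate number 2 or 3 (0.242 and 0.355). It held without replicate 1 of wild type at T0.5 (-2.75), replicate 2 of chl1-5 at T0 (-2.25) or replicate 1 of chl1-5 at T0.5 (-2.34). With the replicate number as a block both calls held (limma adjusted p = 0.00898 in wild type and 0.00869 in the mean response).

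CYP71B23 had signals of 1494.8, 1146.8 and 1408.1 in chl1-5 at T0.5, against 2123.6, 1886.0 and 1645.5 at T0. In wild type it had 1531.5, 952.1 and 1571.4 at T0.5, against 1516.5, 2017.7 and 1840.6 at T0. The chl1-5 arrays of the times did not overlap, and the wild-type arrays did, with replicate 1 level. Over both genotypes it fell by 0.46 (SE 0.14, adjusted p = 0.0423), 1.37-fold, and was lower in 5 of 6 pairs. The single responses of -0.48 in chl1-5 and -0.43 in wild type (SE 0.19 each) did not pass (adjusted p = 0.218 and 0.242). With the replicate number as a block the call in the mean response held (limma adjusted p = 0.0217). The mean change was -0.39 with each array divided by its median (adjusted p = 0.101), and -0.24 without replicate number 2 (adjusted p = 0.321). The call was also lost with no filter (0.0545), without a trend (0.0545) and without replicate number 3 (0.107). It was lost without any one of 7 arrays, which were replicates 2 and 3 of wild type at T0, replicate 2 of wild type at T0.5, replicates 1 and 2 of chl1-5 at T0 and replicates 2 and 3 of chl1-5 at T0.5 (adjusted p from 0.0663 to 0.103).

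CYP71B37 had signals of 715.7, 947.1 and 709.3 in chl1-5 at T0.5, against 1148.6, 1118.9 and 1023.9 at T0. In wild type it had 867.3, 946.7 and 619.9 at T0.5, against 1045.2, 1070.6 and 859.1 at T0. It was lower at T0.5 in 6 of 6 pairs, without overlap in chl1-5 and with overlap in wild type. Over both genotypes it fell by 0.40 (SE 0.12, adjusted p = 0.0443), 1.31-fold. The chl1-5 response was -0.48 (SE 0.17, adjusted p = 0.154, and 0.0202 with the replicate number as a block), and the wild-type response -0.31 (SE 0.17, adjusted p = 0.349). The call in the mean response held with that block (limma adjusted p = 0.00434). The mean change was -0.33 with each array divided by its median (adjusted p = 0.0926) and -0.37 after quantile normalization (adjusted p = 0.0591). The call was also lost with no filter (adjusted p = 0.0562), without a trend (0.0553) and without replicate number 1, 2 or 3 (0.177, 0.114 and 0.134). It was lost without any one of 8 arrays, which were all 3 of chl1-5 at T0, replicates 1 and 3 of chl1-5 at T0.5, replicates 1 and 2 of wild type at T0 and replicate 3 of wild type at T0.5 (adjusted p from 0.0621 to 0.102).

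The members' counts are set here against those of all probe sets tested. In chl1-5 0 of 12 members were called by limma, against 3.86% of all, with 2 members under 0.05 before adjustment, against 17.0%. In wild type 1 of 12 was called, lower, against 5.58% (2.14% lower). In the mean response 3 of 12 were called, all lower, against 14.0% (7.56% lower). With the replicate number as a block 1 of 12 was called in chl1-5 (9.9% of all), 2 of 12 in wild type (11.8%) and 6 of 12 in the mean response (24.2%, and 14.8% lower), where all 6 were lower. The members counted are those that passed the signal filter, so the counts are a description.

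The members' median change was -0.22 in chl1-5 and -0.31 in wild type, against -0.06 and -0.09 over all probe sets tested. Over all 24 members with no filter the medians were -0.03 in chl1-5 and -0.31 in wild type, against -0.03 and -0.09 over all probe sets. With each array divided by its median, the median of all probe sets in wild type moved up by 0.10. The members' median became -0.19 in chl1-5 and -0.20 in wild type. Under both scalings 8 of 12 members had a value below 0 in each genotype. Of all probe sets, 62.0% in chl1-5 and 67.1% in wild type were not above 0 as deposited, and 55.8% and 48.3% with each array divided by its median. Over all probe sets that scaling turned a split of 917 higher and 1081 lower calls in the mean response into 1058 and 624.

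**Figure D2:**
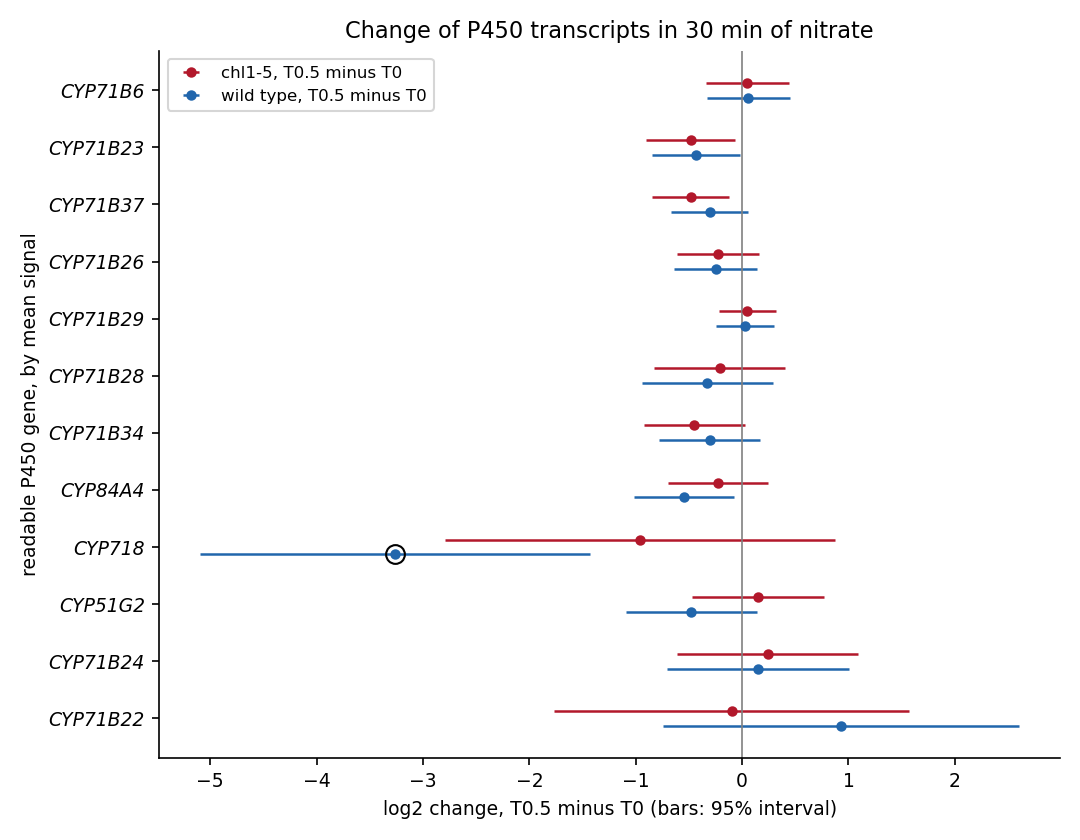
Log2 change from T0 to T0.5 (horizontal axis) of the 12 readable members in chl1-5 (red) and wild type (blue), with 95% intervals from limma and a ring where the adjusted p was under 0.05. The wild-type value of CYP718 (-3.26) carries the only ring, and the intervals of CYP718 and CYP71B22 are the widest.

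Other members were lower at T0.5 without passing. CYP71B34 had signals of 242.7, 243.6 and 183.3 in chl1-5 at T0.5, against 285.7, 385.9 and 250.2 at T0, and 260.6, 217.1 and 163.0 in wild type at T0.5, against 271.8, 304.3 and 210.3 at T0. Its mean response was -0.38 (SE 0.15, adjusted p = 0.129, and 0.0139 with the block). CYP71B26 stood at 793.4, 543.8 and 677.6 in chl1-5 at T0.5, against 840.0, 661.8 and 841.7 at T0, and at 790.5, 577.1 and 692.5 in wild type at T0.5, against 791.2, 690.9 and 971.1 at T0. Its mean response was -0.24 (SE 0.13, adjusted p = 0.238, and 0.0427 with the block). Both genes were lower in every pair as deposited, with replicate 1 of CYP71B26 in wild type nearly level. Neither was lower in every pair with each array divided by its median or after quantile normalization. Both lie in the gene cluster of CYP71B37.

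CYP84A4, the gene of pyrone synthesis, had signals of 154.4, 135.6 and 165.6 in chl1-5 at T0.5, against 182.3, 147.0 and 206.5 at T0. In wild type it had 109.1, 105.0 and 156.1 at T0.5, against 152.7, 156.0 and 232.8 at T0. Its response was -0.22 in chl1-5 (SE 0.22, adjusted p = 0.675) and -0.54 in wild type (SE 0.22, adjusted p = 0.188, and 0.0331 with the block). The mean response was -0.38 (SE 0.15, adjusted p = 0.119, and 0.0196 with the block). It was lower at T0.5 in 6 of 6 pairs, with overlap between the times in each genotype.

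In all, 5 of 12 members were lower at T0.5 in 6 of 6 pairs (CYP718, CYP71B26, CYP71B34, CYP71B37 and CYP84A4), against 15.4% of all probe sets tested, and none was higher in 6 of 6 pairs, against 8.23%. The set depends on the scaling. With each array divided by its median it held CYP718, CYP71B37 and CYP84A4 (3 of 12, against 9.24%), and after quantile normalization these and CYP71B23 (4 of 12, against 13.0%). Among readable members, signals at T0.5 lay wholly below those at T0 for CYP71B23, CYP71B34 and CYP71B37 in chl1-5 (3 of 12, against 12.1% of all) and for CYP718 in wild type (1 of 12, against 17.6%).

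**Figure D3:**
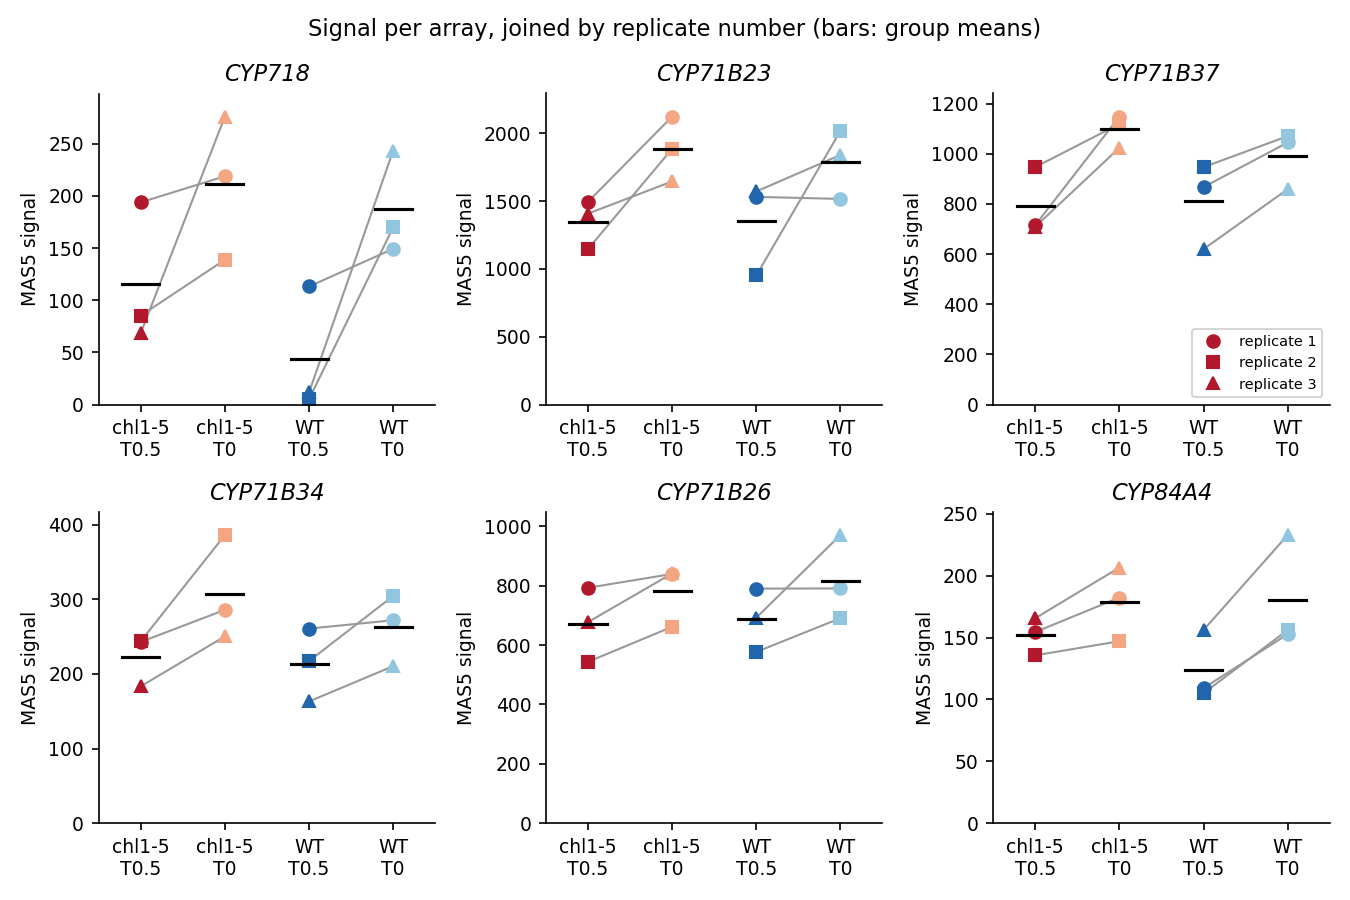
Signal per array (vertical axis, MAS5 units from 0) of the 3 members called in the mean response and the 3 others called with the replicate block, by group, with arrays of one replicate number joined between T0.5 and T0 and bars at group means. Wild-type CYP718 replicates 2 and 3 drop to 5.3 and 11.7 at T0.5 while replicate 1 stays at 113.2, and CYP84A4 is lower at T0.5 along all 6 lines.

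CYP71B6, the brightest member, had signals of 3383.8, 3569.7 and 2982.3 in chl1-5 at T0.5, against 4151.7, 3253.3 and 2410.0 at T0. In wild type it had 3506.9, 2681.3 and 2815.3 at T0.5, against 3154.2, 3001.6 and 2487.0 at T0. The groups overlapped throughout. Its response was 0.05 in chl1-5 (95% interval -0.34 to 0.44) and 0.06 in wild type (-0.33 to 0.45), so a change by more than 0.45 on the log2 scale in wild type lies outside the interval.

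CYP71B29 was the steadiest member, with an SD within groups of 0.12 and signals from 258.5 to 325.7 on all arrays. Its response was 0.05 in chl1-5 (95% interval -0.22 to 0.32) and 0.03 in wild type (-0.24 to 0.30). Its direct neighbour CYP71B28 varied more (SD 0.40), at -0.21 in chl1-5 (SE 0.28) and -0.33 in wild type (SE 0.28). The median SD over all probe sets tested was 0.20.

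Among the members at the edge of readability, CYP71B24 stood at 0.24 in chl1-5 and 0.15 in wild type (SE 0.39 each). CYP51G2 stood at 0.15 in chl1-5 and -0.48 in wild type (SE 0.28 each), and CYP71B22 at -0.10 and 0.93 (SE 0.77 each). CYP71B22 had signals of 58.1, 121.1 and 50.3 in wild type at T0.5, against 59.1, 100.7 and 8.6 at T0, and the array of 8.6 was the lowest of all 12. None of the 3 passed in any comparison.

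Replicate number accounted for part of the spread of most members. Taking it out lowered the SD of CYP84A4 to 0.13, against 0.27 with it in, that of CYP71B26 to 0.12, against 0.24, and that of CYP71B34 to 0.15, against 0.30. Over all probe sets tested the median SD was 0.16 with it out and 0.20 with it in. CYP718 (1.14, against 1.25) and CYP71B23 (0.28, against 0.27) changed little.

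The 12 dim members are set here against the 8455 probe sets too dim to read, by whether the arrays of 2 groups overlapped. From T0 to T0.5 in chl1-5, CYP71B36 lay wholly lower (1 of 12, against 3.77%) and CYP71B16 wholly higher (1 of 12, against 7.9%). In wild type CYP71B16 lay wholly lower (1 of 12, against 6.62%) and CYP78A9 wholly higher (1 of 12, against 4.79%). Between genotypes at T0.5, CYP78A9 lay wholly lower in chl1-5 (1 of 12, against 2.96%), and CYP71B16 and CYP71B31 wholly higher (2 of 12, against 5.7%). At T0 CYP79A2 lay wholly lower in chl1-5 (1 of 12, against 5.77%) and none wholly higher (against 3.25%). CYP78A9 had 40.2, 3.8 and 69.1 in chl1-5 at T0.5, against 26.0, 4.9 and 31.7 at T0, and 71.3, 113.1 and 71.8 in wild type at T0.5, against 24.3, 31.3 and 9.9 at T0. Only the 113.1 reached the 40th percentile of its array. All signals of CYP71B16, at most 38.2, lay below it, so no change is given for either gene.

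Between genotypes no member was called, at T0.5, at T0 or in the difference of responses. At T0.5 0.224% of all probe sets were called and at T0 0.028%, by limma. Before adjustment, p was under 0.05 for 1 member at T0.5 (2.9% of all) and for 0 at T0 (0.938%). The difference of responses was called for 0.035% of all probe sets, and 0 members lay under 0.05 before adjustment (1.94% of all). The member at T0.5 was CYP718, with signals of 193.8, 85.2 and 68.4 in chl1-5 at T0.5, against 113.2, 5.3 and 11.7 in wild type. It was higher in chl1-5 in 3 of 3 pairs by 2.44 (SE 0.84, 95% interval 0.61 to 4.28), with overlap between the groups and an adjusted p of 1. Without the wild-type T0.5 array of replicate 1 the difference was 3.73 and passed (adjusted p = 0.0114). Without that of replicate 2 or 3 the difference was 1.52 or 2.09 and did not pass. Nor did it pass without replicate number 1 (3.28, adjusted p = 0.109) or with the block (adjusted p = 0.377).

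The responses of CYP718 differed by 2.30 (SE 1.19, 95% interval -0.30 to 4.89, adjusted p = 1), so the chl1-5 change was not shown to differ from that in wild type. At T0 its genotypes differed by 0.15 (SE 0.84). For the bright members the intervals of the difference of responses were narrower. That of CYP71B6 ran from -0.56 to 0.54, that of CYP71B23 from -0.64 to 0.54, that of CYP71B37 from -0.69 to 0.34 and that of CYP71B29 from -0.36 to 0.40. These intervals give the differences that the arrays do not exclude.

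At T0 CYP71B22, CYP71B28, CYP71B34 and CYP71B37 were higher in chl1-5 in 3 of 3 pairs (11.2% of all probe sets), by 1.23, 0.14, 0.22 and 0.15 on the log2 scale, each with overlap between genotypes. At T0.5 CYP718, CYP71B22, CYP71B28 and CYP84A4 were higher in chl1-5 in 3 of 3 pairs (17.0%), by 2.44, 0.20, 0.25 and 0.32. CYP71B22 and CYP71B28 appear at both times, and the share of all probe sets that do so was not counted. Same-numbered arrays of different groups deviated together (r from 0.21 to 0.77), so the times are not independent. CYP71B22 was dim in wild type at T0, with replicate 3 at 8.6. CYP51G2 was lower in chl1-5 in 3 of 3 pairs at T0 (13.8%), by a log2 difference of -0.39. No readable member lacked overlap between genotypes, against 3.46% of all probe sets higher and 3.0% lower in chl1-5 at T0.5, and 1.98% and 3.21% at T0.

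**Figure D4:**
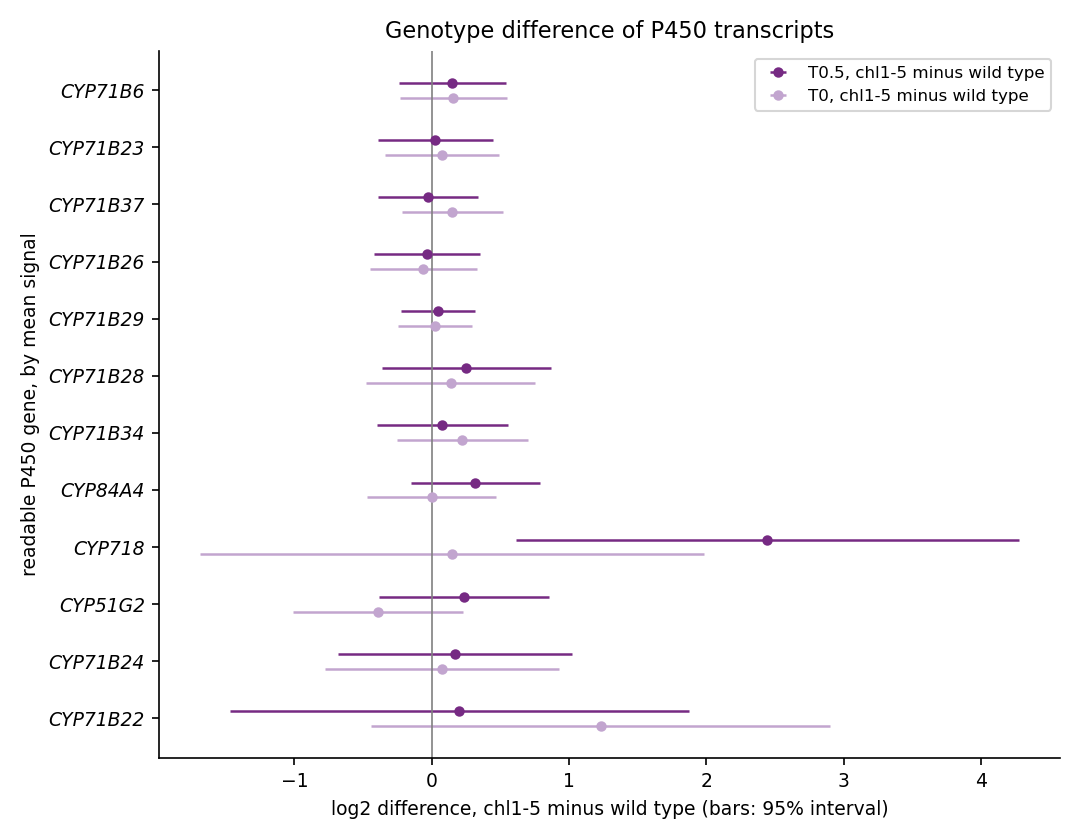
Log2 difference between genotypes, chl1-5 minus wild type (horizontal axis), of the 12 readable members at T0.5 (dark) and T0 (light), with 95% intervals from limma. No value passed the adjusted threshold, and the interval of CYP718 at T0.5 (0.61 to 4.28) is the one that leaves out 0.

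Few other genes of the listed P450 pathways had a named probe set. Of the pathways named below, only phenylpropanoid and indole and glucosinolate metabolism hold members. Of 17 listed phenylpropanoid genes, 1 was tested. HCT, the acyltransferase that feeds lignin synthesis, had signals of 3890 to 4663 in chl1-5 at T0.5, against 4528 to 5510 at T0, and 3750 to 4078 in wild type at T0.5, against 4792 to 5580 at T0. Its chl1-5 change was -0.29 (SE 0.11, adjusted p of 0.18), and it fell by 0.40 in wild type (SE 0.11, adjusted p = 0.0463). The difference of these responses was 0.11 (SE 0.15) and was not called. In the mean response HCT fell by 0.34 (SE 0.07, adjusted p = 0.00914). Of 17 listed indole and glucosinolate genes, 2 were tested. UGT74B1, the glucosyltransferase of glucosinolate synthesis, fell by 0.33 in the mean response (SE 0.10, adjusted p = 0.0484). BCAT4, the aminotransferase at the start of methionine-derived glucosinolates, stood at -0.35 (SE 0.38, adjusted p = 0.590). Of 34 listed cytokinin genes, 2 were tested. UGT76C2, a glucosyltransferase that inactivates cytokinins, fell by 0.69 in chl1-5 (SE 0.16, adjusted p = 0.0349) and by 1.06 in wild type (SE 0.16, adjusted p = 0.00161), and UGT76C1 was not called. The brassinosteroid receptor gene BRL1 (1 of 8 listed) and the suberin gene FACT (1 of 16) were not called in the mean response (adjusted p = 0.0638 and 0.937), BRL1 reaching 0.0471 with the block. No listed partner gene of abscisic acid, gibberellin, jasmonate or root triterpene metabolism had a named probe set. None of the 11 listed redox partners of P450s, such as the reductases, had a named probe set.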

How the data were processed

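Per the submitters' processing notes, the authors summarised each Affymetrix ATH1 array to MAS5 signal intensity per probe set, on a linear scale. No version is stated. The deposited arrays had trimmed means between 499 and 501 (2% at each end), and 64 of 22810 probe sets were controls and left out. Names came from the platform annotation, updated by gene number to TAIR10.1 (13513 probe sets with 1 gene, 503 with several, 8730 not listed). Signals under 0.1 were set to 0.1, and all were put on the log2 scale. The 14291 probe sets that reached the 40th percentile on at least 3 arrays entered 1 limma model of the 4 group means (limma 3.58.1, R 4.3.3, eBayes with trend), tested on simulated data first. Tests are two-sided, with Benjamini-Hochberg adjustment over all probe sets, and intervals are 95%.

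Replicate numbers come from the titles, each an independent experiment per the labels' protocols. Deviations from a group mean cancel within the group, so a positive r of same-numbered arrays tends to make that of other numbers negative. All 18 same-numbered pairs of arrays from different groups deviated together (r from 0.21 to 0.77, with -0.63 to -0.01 for different numbers). A fit with the number as a block is therefore given beside the main fit for the members called, and where it changes the call of a member. The members, pathway lists and naming rule (every member called, the largest changes per comparison, and CYP718) were chosen with earlier results of these data known. The listed symbol CHI matched a chitinase and was dropped. Coordinates of the reference table were used only for the gene order, and sequences are not used here.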

Additional observations from a re-analysis of the deposited data

How the results depend on the processing

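The count of members called moved with most settings in the wild-type and mean responses. It moved with few in chl1-5 and between genotypes at T0.5. Between genotypes at T0 and in the difference of responses it never moved. In the mean response (3 members) the count was 1 with each array divided by its median, 1 with no filter, 1 by eBayes without trend and 6 with the replicate block. It was 2 after quantile normalization, 2 with the 60th percentile filter and 3 on the scale of log2(signal + 50). Without 1 array or 1 replicate number it was from 0 to 3. In wild type (1 member) it was 0 after quantile normalization, with no filter, with the 60th percentile filter, with the arrays of the compared groups only and without trend, 2 with the replicate block, and from 0 to 1 without 1 array or number. In chl1-5 (0 members) it was 1 with no filter and 1 with the replicate block, which called different genes. With no filter the gene was CYP71B16, higher at T0.5 but below the 40th percentile on all 12 arrays. With the block the gene was CYP71B37, lower at T0.5. Between genotypes at T0.5 (0 members) the count was from 0 to 1 when arrays were left out, with CYP718 the one called. At the 60th percentile 6 members were readable, not 12, and CYP718 was not tested there. The mean responses of CYP718, CYP71B23, CYP71B26, CYP71B34, CYP71B37 and CYP84A4 kept their sign under every alternative run, as did the wild-type responses of CYP718 and CYP84A4 and the chl1-5 response of CYP71B37. Every member has 1 probe set, so counting all of them changed nothing. The 6-pair counts under other scalings were added after seeing the data. With 3 arrays per group and signals near background for CYP718 at T0.5, the size of its fall is poorly fixed. The causes of these changes were not tested.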

Other observations

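The probe set shared by CYP71B19 and CYP71B20, which cannot be assigned to one gene, ranged from 58.2 to 138.5 in chl1-5 at T0.5, against 43.0 to 68.0 at T0, and from 69.4 to 83.4 in wild type at T0.5, against 5.0 to 49.9 at T0. It reached the 40th percentile on 1 of 12 arrays. In wild type its T0.5 arrays lay wholly above those of T0, as did those of 4.79% of the 8455 probe sets too dim to read. The probe set shared by CYP79C2 and AT1G58265 stayed between 1.2 and 33.7 on all arrays.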
